A study of Homo sapiens with 8 samples.

Results

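The cytosolic ribosomal protein genes and the genes of the translation factors were examined for N6-methyladenosine (m6A) peaks in RNA bound to chromosomes. Members were the protein-coding genes of the RefSeq table of GRCh38.p14 whose symbol is RPL or RPS followed by digits and an optional letter, RPS4X, RPLP0 to RPLP2 or RPSA, or starts with EIF or EEF. The rule took no measured value. It gave 152 genes of 20056 protein-coding genes, namely 81 ribosomal protein genes and 71 factor genes. The peaks that overlapped their bounds by at least 1 bp numbered 86 of 23937 in the knockout list and 97 of 29084 in the wild-type list.

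The cells were HEK293T, an established human embryonic kidney line, with METTL3 knocked out (METTL3-/-, KO) or in the parental form (wild type, WT). METTL3 catalyses the deposition of m6A on RNA. How the knockout line was made, and whether it is 1 clone, are not given in the sources used here. Residual DNA and ribosomal RNA were removed from chromosome-associated RNA, an m6A antibody kit enriched the modified RNA (immunoprecipitation, IP), and strand-specific sequencing libraries came from this fraction and from unenriched RNA (input). The 8 samples formed 4 groups of 2 replicates each, KO IP, KO input, WT IP and WT input. All groups shared the same culture medium, and no other treatment is named for them.

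The deposited values are 1 peak list per genotype, each standing for 2 IP and 2 input libraries, with no value per replicate. Every value below is therefore the authors' single value for that list, without a spread between replicates, and no difference between genotypes could be tested. IP reads were recovered from the fold and p-value of each peak, and a summit held a median of 30 reads (plus strand) and 31 (minus strand) in the KO list against 25 and 23 in the WT list. Each IP read counted for 0.479 and 0.438 in KO and for 0.607 and 0.572 in WT after the peak caller's scaling. The fold adds 1 to the scaled IP reads and to the local input, so folds of the lists are not directly comparable. METTL3 itself, the targeted gene, had 0 KO peaks and 2 WT peaks, with folds of 4.83 and 4.91 on 32 and 24 IP reads. Of all protein-coding genes with 2 WT peaks, 32.0% had no KO peak, so this count does not check the knockout. Of the 5 markers chosen for HEK293T, 3 had a KO peak and 3 a WT peak, among them LIN28B and CDH2 in both lists. Of 7 markers of other cell types, 0 had a KO peak and 1 (PTPRC) a WT peak. A peak list holds no expression level. The markers also differed in length, with medians of 94.5 kb for HEK293T and 12.3 kb for other cell types. Of all protein-coding genes, 63.2% of those of 50 kb and over had a KO peak, and 31.3% of those from 10 to 50 kb. In WT these shares were 67.6% and 37.7%. Cell identity could therefore not be checked from these counts.

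Ribosomal proteins are the protein parts of the small and large ribosomal subunits, and their genes are short and among the most strongly transcribed in growing cells. Their mRNAs typically begin with a C followed by a run of pyrimidines, the terminal oligopyrimidine (TOP) tract, through which the TOR pathway controls their translation. Initiation factors (EIF) bring the small subunit, the initiator tRNA and the mRNA together, and elongation factors (EEF) move the ribosome along. The kinases of EIF2 switch initiation down under stress, and the EIF4E-binding proteins do so by masking the cap-binding factor EIF4E.

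The 5′ starts are shown first because the tract is the sequence feature that the ribosomal protein genes share and that the rule for members did not use. In the windows below, each on the strand of the gene in GRCh38.p14 from RefSeq, 10 bases precede the annotated start and 20 bases follow from it. Capitals mark a C followed by at least 4 bases that are each C or T, beginning at the start.
RPL31, chr2:101002279-101002308, plus strand: ccttcgcgctCTTCCTTTCCaacttggacg
RPL34, chr4:108620566-108620595, plus strand: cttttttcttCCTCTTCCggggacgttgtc
RPL36A, chrX:101391001-101391030, plus strand: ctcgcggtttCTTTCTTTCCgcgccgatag
RPS6, chr9:19380217-19380246, minus strand: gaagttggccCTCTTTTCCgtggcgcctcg
RPS18, chr6:33272065-33272094, plus strand: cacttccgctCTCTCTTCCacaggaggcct
EEF1A1, chr6:73521013-73521042, minus strand: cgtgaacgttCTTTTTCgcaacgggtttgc
EIF4E, chr4:98929114-98929143, minus strand: tggagcggttgtgcgatcagatcgatctaa
EIF2AK2, chr2:37156961-37156990, minus strand: aggggaaaacgaaactgagaaccagctctc
The last pair, the cap-binding factor EIF4E and the RNA-activated EIF2 kinase EIF2AK2, have no such tract at their start, and no letter of theirs is in capitals.

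A tract at the annotated start was found in 46 of the 64 ribosomal protein genes with a promoter sequence in the table (71.9%) and in 13 of 57 factor genes (22.8%), against 6.24% of all 15843 protein-coding genes there. Allowing the tract to begin within 5 bases of the start gave 53 ribosomal protein genes (82.8%) and 24 factor genes (42.1%), against 28.0% of all. Among factors, the tract stood at the start in 3 of 6 EEF genes, in 4 of 5 EIF2 genes and in 4 of 8 EIF3 genes. It stood at the start in 0 of 3 EIF2 kinase genes, 0 of 5 EIF2B genes and 0 of 7 genes of the EIF4E family. Of the ribosomal protein genes, 12 of 13 with a peak in either list had the tract at the start, and 34 of 51 without a peak had it. Of the factor genes, 6 of 32 with a peak and 7 of 25 without one had it. These counts describe letters of the reference at the annotated starts, and starts in these cells were not measured.

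In both genotypes a smaller share of ribosomal protein genes than of factor genes had a peak. In KO, 7 of 81 ribosomal protein genes had a peak (8.64%, 95% interval 3.55 to 17.0) and 31 of 71 factor genes (43.7%, 31.9 to 56.0), against 34.8% of all protein-coding genes. In WT, 11 ribosomal protein genes had a peak (13.6%, 6.98 to 23.0) and 36 factor genes (50.7%, 38.6 to 62.8), against 39.6% of all. The intervals of the ribosomal protein and factor shares did not overlap within either list. They are exact binomial intervals that cover counting error only. In these bulk samples, fewer cells with a transcript, less of it per cell and less modification cannot be told apart behind a missing peak. Neither list had a peak in 66 of 81 ribosomal protein genes (81.5%) and 27 of 71 factor genes (38.0%), against 52.2% of all protein-coding genes and 83.7% of those under 10 kb.

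Gene length moved with this difference. The median length was 5.01 kb for ribosomal protein genes and 20.8 kb for factor genes, against 24.1 kb for all protein-coding genes. Among genes under 10 kb, 5 of 70 ribosomal protein genes (7.14%) and 4 of 18 factor genes (22.2%) had a KO peak, against 8.67% of all. In WT the same class held 7 of 70 ribosomal protein genes (10%) and 1 of 18 factor genes (5.56%), against 11.5% of all. The short ribosomal protein genes thus stood near the share of all short genes, and in WT they stood above the short factors.

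In the class from 10 to 50 kb, 2 of 11 ribosomal protein genes (18.2%) and 19 of 42 factor genes (45.2%) had a KO peak, against 31.3% of all. The WT counts in that class were 4 of 11 (36.4%) and 26 of 42 (61.9%), against 37.7% of all. At 50 kb and over there was no ribosomal protein gene, and 8 of 11 factor genes had a KO peak and 9 of 11 a WT peak, against 63.2% and 67.6% of all. Per 100 kb of gene, ribosomal protein genes held 2.09 KO and 2.47 WT peaks and factor genes 2.81 KO and 3.15 WT peaks, against 1.41 and 1.75 over all protein-coding genes. By this measure of density both classes lay above all protein-coding genes, and ribosomal protein genes lay below factors. Genes of 50 kb and over made up 1.07e+06 of the 1.30e+06 kb of all protein-coding genes. Density was not taken within length classes, so the comparison with all genes is not matched for length.

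**Figure D1:**
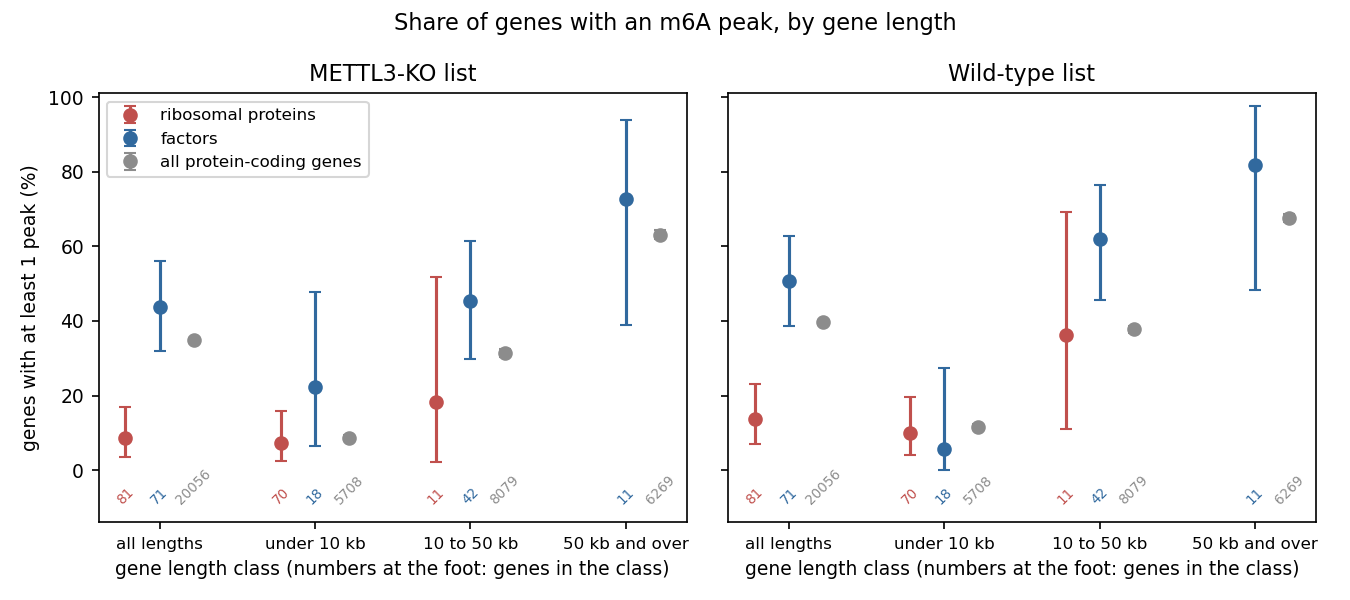
Share of genes with at least 1 peak (percent, vertical axis) by gene length class, for ribosomal protein genes, factor genes and all protein-coding genes, with the KO list on the left and the WT list on the right. Points are shares and bars are 95% exact binomial intervals. Over all lengths the ribosomal protein points sit at 8.64% and 13.6%, while under 10 kb they sit at 7.14% and 10%, close to all genes of that class.

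The peaks also differed in their fold, the linear enrichment of IP relative to local input at the peak summit. The median fold of ribosomal protein peaks was 4.01 in KO (11 peaks) and 5.75 in WT (13 peaks). The median fold of factor peaks was 7.12 in KO (75 peaks) and 7.59 in WT (84 peaks), against 7.06 and 7.26 for all peaks in protein-coding genes. The local input is the peak caller's background estimate, recovered for each peak. It is part of the divisor of the fold, so input and fold are not independent. Its median was 9 in KO and 7 in WT at ribosomal protein peaks and 2 and 2.4 at factor peaks. Over all protein-coding genes it was 1.0 in both lists.

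The lower folds did not come with fewer reads. Ribosomal protein peaks had a median of 57 IP reads in KO and 50 in WT, factor peaks 46 and 49, and all peaks in protein-coding genes 32 and 26. The ribosomal protein peaks thus had the highest input and the lowest fold of these groups in both lists. Among ribosomal protein peaks, those under the largest input were the peaks of RPL27A in KO and of RPS18 and RPS6 in WT, all with folds under those of 99% of the list's peaks in protein-coding genes.

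**Figure D2:**
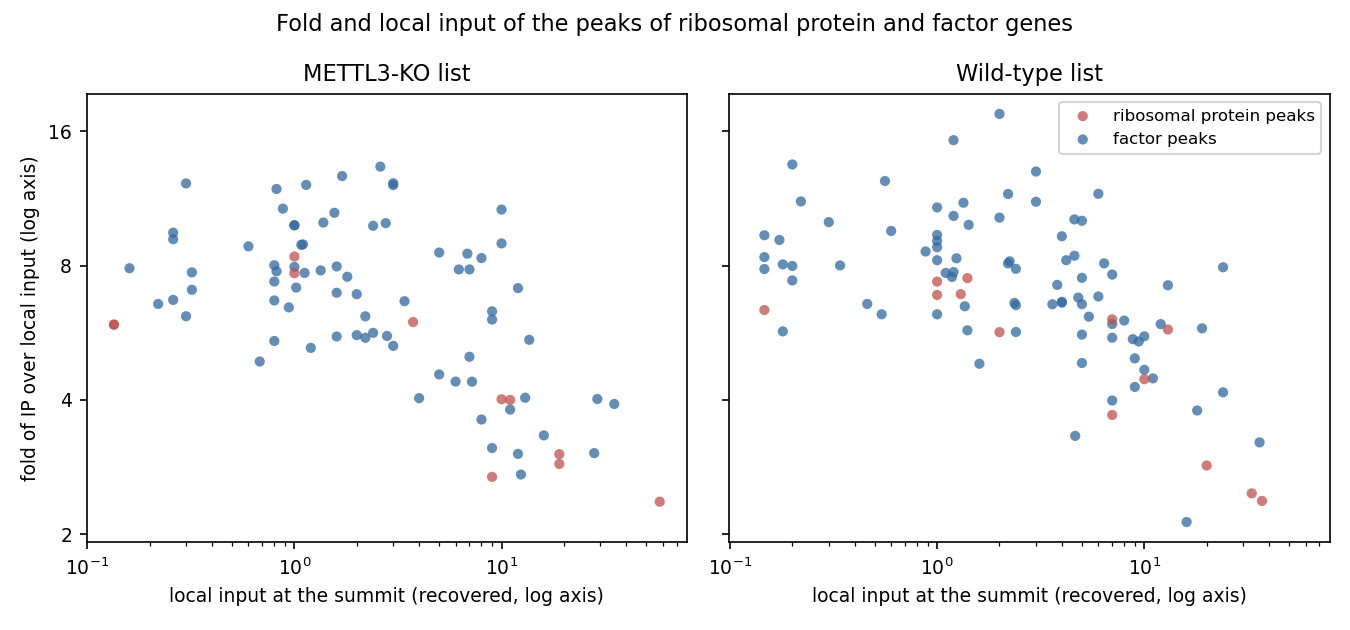
Fold of IP over input (vertical axis, log scale) against the recovered local input, the peak caller's background estimate (horizontal axis, log scale). Each point is 1 peak of a ribosomal protein or factor gene, with KO on the left and WT on the right. The fold divides by this input. In both panels the points fall toward the right, and the ribosomal protein peak furthest right has a fold of 2.37.

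Genes with a peak in 1 list alone were counted in each class. In KO, 4 of 7 ribosomal protein genes with a peak (57.1%, interval 18.4 to 90.1) and 8 of 31 factor genes (25.8%, 11.9 to 44.6) had no WT peak, against 23.6% of all protein-coding genes with a KO peak. In WT, 8 of 11 ribosomal protein genes (72.7%, 39.0 to 94.0) and 13 of 36 factor genes (36.1%, 20.8 to 53.8) had no KO peak, against 32.8% of all with a WT peak. The factor shares stood near those of all genes, and the intervals of ribosomal proteins and factors overlapped in both lists. A count of genes of known strand, with peaks on that strand alone, was also made. It gave 1 of 3 ribosomal protein genes in KO (33.3%) and 7 of 9 in WT (77.8%).

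Gene length moved with these shares too. Among genes under 10 kb, 3 of 5 ribosomal protein genes with a KO peak and 4 of 4 factor genes had no WT peak, against 55.4% of all. In WT, 5 of 7 ribosomal protein genes and 1 of 1 factor gene of that class had no KO peak, against 66.5% of all. The short ribosomal protein genes with a peak in 1 list alone thus stood near the share of all short genes.

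The number of peaks in a gene moved with these shares as well. Of all protein-coding genes, 37.8% of those with 1 KO peak, 18.7% of those with 2 and 6.33% of those with 3 or more had no WT peak. The ribosomal protein counts were 4 of 5, 0 of 1 and 0 of 1, and the factor counts 7 of 18, 1 of 4 and 0 of 9. Of all protein-coding genes, 52.4% of those with 1 WT peak, 32.0% of those with 2 and 9.16% of those with 3 or more had no KO peak. The ribosomal protein counts were 7 of 9 and 1 of 2, none having 3 or more, and the factor counts 8 of 19, 4 of 6 and 1 of 11.

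Single peaks were also matched between the lists. Without a partner on the same strand were 8 of 11 ribosomal protein peaks in KO (72.7%, interval 39.0 to 94.0) and 44 of 75 factor peaks (58.7%, 46.7 to 69.9), against 73.5% of all peaks in protein-coding genes. In WT these were 10 of 13 ribosomal protein peaks (76.9%, 46.2 to 95) and 53 of 84 factor peaks (63.1%, 51.9 to 73.4), against 78.7%. The factor intervals lay below the value of all peaks in both lists, and those of the ribosomal proteins held it. Among genes of known strand, with peaks on that strand alone, the factor share was 66.1% in KO (52.2 to 78.2). In WT it was 67.7% (54.7 to 79.1), and both intervals held the values of all peaks given above. This setting left out genes without a strand in the table, among them EIF3A with 5 shared peaks in each list. At factor genes of known strand, 1 KO and 0 WT peaks lay on the opposite strand.

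Read support moved with this share. At summits with over 50 IP reads, 13 of 35 factor peaks in KO (37.1%) and 19 of 41 in WT (46.3%) had no partner, against 48.6% and 48.4% of all. At 26 to 50 reads it was 20 of 27 in KO (74.1%) and 15 of 22 in WT (68.2%), against 76.7% and 77.5%. Within each of these classes the factor shares stood closer to those of all peaks than they did overall. Of ribosomal protein peaks with over 50 reads, 5 of 7 in KO (71.4%) and 4 of 6 in WT (66.7%) had no partner, above the shares of all. At 26 to 50 reads these counts were 2 of 2 and 3 of 4, and at up to 25 reads 1 of 2 and 3 of 3. The ribosomal protein counts are small, and their difference from all peaks was not tested. Peaks of 1 gene are not independent, and EIF3A and EIF5B together hold 10 of the 31 shared KO peaks of factors.

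Large subunit genes held all the ribosomal protein peaks of the KO list. Their 49 genes had 11 KO peaks in 7 genes and 7 WT peaks in 6 genes, with RPL24, RPL31 and RPL36A in both lists. The 32 small subunit genes had 0 KO peaks and 6 WT peaks, in RPS6, RPS18, RPS21, RPS27A and RPS29. The median length was 5.06 kb for large and 4.77 kb for small subunit genes. Of all protein-coding genes under 10 kb, 8.67% had a KO peak and 11.5% a WT peak. Of those short genes with a WT peak, 66.5% had no KO peak. Whether the subunits differ was not tested, since the counts come from 1 list per genotype.

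RPL31, a large subunit protein near the exit of the nascent chain, had the most peaks of any ribosomal protein gene, 4 in KO and 2 in WT. Its KO peaks on the strand of the gene lay at chr2:101011038-101011256 (fold 3.02, 124 IP reads), chr2:101012934-101013136 (4.0, 98 reads) and chr2:101015547-101015746 (5.98, 57 reads). The WT peak on that strand, at chr2:101011034-101011251, had a fold of 4.45 on 79 reads and overlapped the first of these. The other 2 had no WT partner.

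On the minus strand, opposite to RPL31, a KO peak at chr2:101007797-101008097 (fold 5.90, 13 reads) overlapped a WT peak at chr2:101008060-101008259 (5.67, 28 reads). This place lies within the bounds of TBC1D8, whose start in the RefSeq table is on the minus strand. The assignment of this pair to RPL31 therefore rests on the bounds alone.

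RPL36A, another large subunit protein, shared a peak between the lists, at chrX:101393016-101393225 in KO (fold 4.01, 90 reads) and at chrX:101392938-101393222 in WT (2.85, 97 reads). A second KO peak, at chrX:101393661-101393941, had a fold of 2.69 on 54 reads and no WT partner. All of these also lie in the bounds of the readthrough gene RPL36A-HNRNPH2. RPL24, which bridges the subunits, had a peak in each list but not at the same place. The KO peak lay opposite to the gene at chr3:101686507-101686722 (7.69, 30 reads), and the WT peak lay on its strand at chr3:101685157-101685419 (6.06, 83 reads). Both also lie in the bounds of the protein-coding gene LOC124906262.

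Among the large subunit genes with KO peaks alone, RPL27A had a peak at chr11:8687896-8688151 with a fold of 2.37 on 289 reads (95% interval 257 to 324), over a local input of 58.0. It was the ribosomal protein peak with the most reads in either list. RPL10, which sits near the catalytic centre, had a peak at chrX:154398619-154398841 (8.38, 36 reads) on the strand opposite to the gene, over the long noncoding gene LOC124905228. RPL37 had a peak at chr5:40829415-40829634 (2.87, 129 reads). RPL3L, a muscle form of RPL3, had one at chr16:1948382-1948581 (5.90, 13 reads, interval 6.92 to 22.2). The table used here gives no strand for the last pair.

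In the large subunit genes with WT peaks alone, RPL22 had a peak at chr1:6186696-6186895 (fold 3.70, 50 reads) and RPL34 at chr4:108622721-108622926 (5.75, 131 reads), both on the strand of the gene. The RPL28 peak at chr19:55393740-55393939 (6.36, 11 reads) lay opposite to its gene. Reads behind these peaks thus differed by over 10 times.

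The small subunit peaks, all in WT, fell in a group of high input and a group of low input. RPS6, the substrate of the ribosomal S6 kinases, had a peak at chr9:19376504-19376779 with a fold of 2.47 on 145 reads over a local input of 33.0. RPS18 had one at chr6:33275658-33276054 with a fold of 2.37 on 147 reads over 37.0. Each was at the low end of folds in the list.

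RPS27A, made as a fusion with ubiquitin, had peaks at chr2:55234764-55234963 (6.87, 21 reads) and chr2:55235230-55235496 (7.50, 28 reads). RPS29 had a peak at chr14:49596920-49597120 (7.36, 24 reads). The RPS21 peak at chr20:62387500-62387699 (6.90, 26 reads) lay opposite to its gene. None of the 6 peaks had a KO partner, and 78.7% of all WT peaks in protein-coding genes had none.

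Peaks on the strand opposite to the gene were counted in both classes. Where the strand of the gene was known, 3 of 9 KO peaks and 3 of 13 WT peaks of ribosomal protein genes were opposite. Among factor genes 1 of 57 KO peaks and 0 of 62 WT peaks were, against 6.87% and 6.39% over all protein-coding genes. The factor peak was in EEF1A1, at chr6:73520028-73520320 (fold 7.89, 17 reads). EEF1A1 carries aminoacyl-tRNA to the ribosome and had no peak on its own strand in either list. The ribosomal protein counts rest on 3 peaks in each list, and the RPL31 pair is in both. The opposite peaks of RPL31, RPL10 and RPL24 also lie in the bounds of TBC1D8, LOC124905228 and LOC124906262. Those of RPL28 and RPS21 lie in no other gene of the table.

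Ribosomal protein genes often host small nucleolar and other small RNA genes, and 33 of 81 did so here (40.7%), as did 14 of 71 factor genes (19.7%), against 7.89% of all protein-coding genes. None of the member peaks lay over such a small RNA gene, 0 of 86 in KO and 0 of 97 in WT, against 0.0329% and 0.0309% of all peaks in protein-coding genes. Many ribosomal protein mRNAs also have processed pseudogenes of nearly the same sequence elsewhere in the genome. The treatment of reads that match several places is not stated in the sources used here. The absence of a peak in a ribosomal protein gene is uncertain to that extent.

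Factor genes were described by the step they serve. Their peaks were spread unevenly over the families, and the plot of peaks per gene shows each gene with a peak. Every EIF2 kinase gene had a peak in both lists, and no gene of the EIF4E family did. Over all protein-coding genes 26.6% had a peak in both, and 54.7% of those of 50 kb and over. For the family counts below, 34.8% of all protein-coding genes had a KO peak and 39.6% a WT peak. Of all peaks in protein-coding genes, 73.5% in KO and 78.7% in WT had no partner. The median length of the kinase genes was 64.6 kb.

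**Figure D3:**
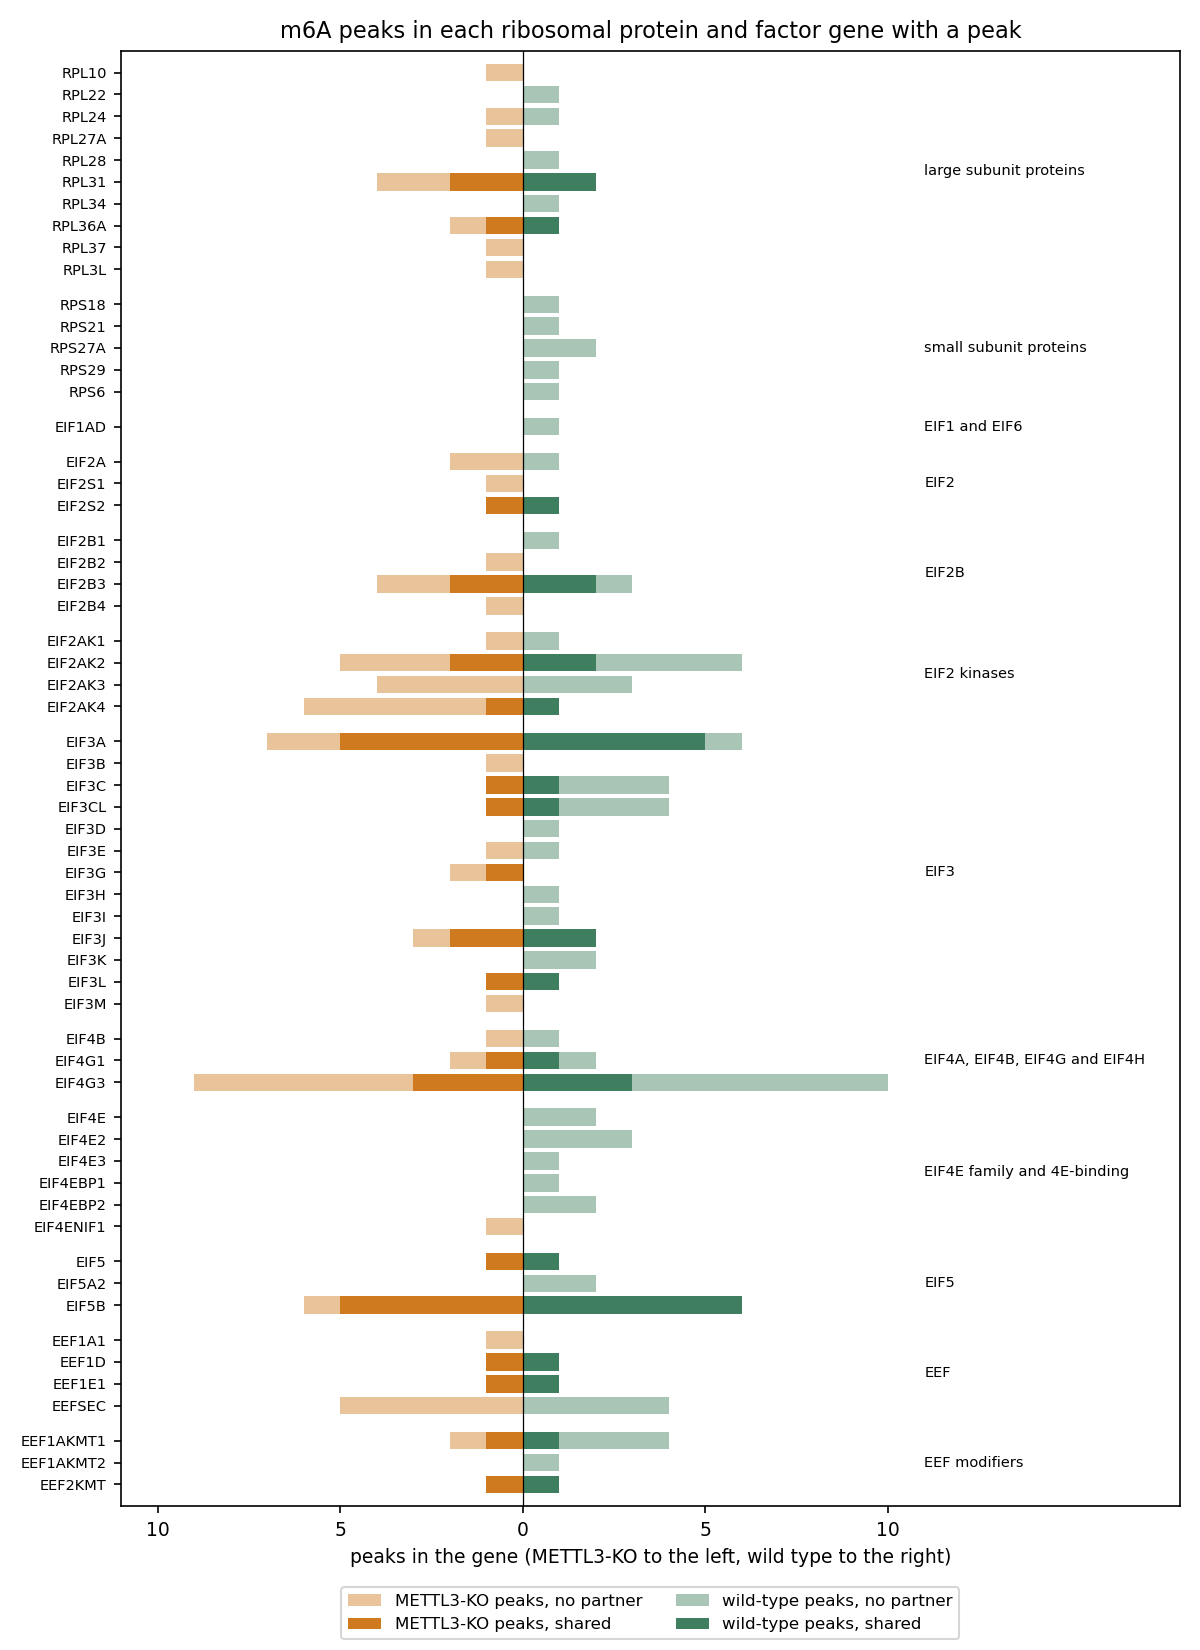
Number of peaks in each ribosomal protein and factor gene with a peak in either list, with KO peaks to the left of 0 and WT peaks to the right. Dark bars are peaks that overlap a peak of the other list on the same strand, and light bars are peaks without such a partner. Small subunit genes have bars on the WT side alone, and EIF4G3 has the most peaks, 9 in KO and 10 in WT. Of all protein-coding genes with a WT peak, 32.8% had no KO peak, and 66.5% of those under 10 kb.

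The 4 EIF2 kinases, which phosphorylate EIF2 under different stresses, held 16 KO and 11 WT peaks, and 3 in each list were shared. EIF2AK2, the kinase activated by double-stranded RNA, had 5 KO and 6 WT peaks. Its shared pairs lay at chr2:37136297-37136496 (fold 5.42 on 20 reads in KO, 6.22 on 15 in WT) and chr2:37154909-37155354 (3.80 on 102 in KO, 7.24 on 59 in WT). EIF2AK4, the kinase that senses uncharged tRNA, had 6 KO peaks and 1 WT peak. The shared one lay at chr15:39955479-39955678 (7.14 on 28 reads in KO, 11.1 on 41 in WT).

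Of the unshared kinase peaks in KO, 3 had a fold above 11. In EIF2AK4 these were at chr15:39953731-39953940 (12.2, 100 reads) and chr15:39960097-39960364 (11.9, 43 reads). In EIF2AK3, the kinase of the endoplasmic reticulum, it was at chr2:88624611-88624923 (12.2, 34 reads). EIF2AK3 had 4 KO and 3 WT peaks with none shared, and EIF2AK1, the haem-regulated kinase, had 1 in each list at different places. In WT the strongest unshared kinase peak was in EIF2AK2, at chr2:37140784-37141158 (10.0, 21 reads).

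EIF4E binds the mRNA cap, EIF4E2 and EIF4E3 are related cap-binding proteins, and the 4E-binding proteins block EIF4E. Of the 8 genes, EIF4E, EIF4E2, EIF4E3, EIF4EBP1 and EIF4EBP2 had WT peaks alone, 9 in all. Over all genes with a WT peak, 32.8% had no KO peak, and 44.7% of those from 10 to 50 kb, the class that holds the family's median length of 31.4 kb. EIF4ENIF1, which carries EIF4E into the nucleus, had the 1 KO peak (fold 5.59, 36 reads) and no WT peak.

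The WT peak of highest fold of all members was in EIF4E, at chr4:98909706-98909959 (17.5, 90 reads, interval 72.4 to 111). Only 1.16% of the list's peaks in protein-coding genes ranked as high or higher. It also overlaps the pseudogene TBCAP3. A second EIF4E peak lay at chr4:98893529-98893960 (11.1, 76 reads). The other WT peaks of the family had folds of 6.55 to 10.2 on 13 to 53 reads. The family members with 2 or 3 WT peaks, EIF4E, EIF4E2 and EIF4EBP2, are 3 of the 5 factor genes with at least 2 WT peaks and no KO peak.

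The promoter of EIF4EBP2 is shown because a WT peak reached over it. The peak at chr10:70404078-70404389 (fold 10.2, 49 reads) began 67 bases before the annotated start. In the next sequence, of chr10:70403895-70404174 on the plus strand in GRCh38.p14 from RefSeq, 250 bases precede the start, and capitals mark the bases under the peak.
EIF4EBP2: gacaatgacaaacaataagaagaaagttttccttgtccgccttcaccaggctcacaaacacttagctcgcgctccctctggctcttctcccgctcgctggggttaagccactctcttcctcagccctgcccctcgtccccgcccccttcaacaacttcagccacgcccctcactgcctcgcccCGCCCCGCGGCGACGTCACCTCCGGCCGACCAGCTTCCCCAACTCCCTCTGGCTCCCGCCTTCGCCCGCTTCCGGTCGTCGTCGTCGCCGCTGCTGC
RPL24, the ribosomal protein gene with a peak at its start, is set beside it. Its sequence is chr3:101686689-101686968 on the minus strand, and capitals again mark the bases under the peak, which was called in KO on the opposite strand.
RPL24: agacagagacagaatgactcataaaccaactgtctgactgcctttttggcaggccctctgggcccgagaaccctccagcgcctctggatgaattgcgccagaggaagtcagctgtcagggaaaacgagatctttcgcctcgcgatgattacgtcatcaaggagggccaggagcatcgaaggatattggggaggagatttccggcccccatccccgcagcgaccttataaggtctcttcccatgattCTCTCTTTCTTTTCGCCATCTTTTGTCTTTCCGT
The stretch under the RPL24 peak holds the tract. Neither window holds GGACT, the commonest form of the m6A consensus, on either strand. On the strand of the gene GGACT was found in the windows of 15 ribosomal protein genes (23.4%) and 11 factor genes (19.3%), against 31.9% of all protein-coding genes, so its absence is usual. In these windows 250 bases precede the start and 50 follow from it.

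EIF3 is the largest initiation factor and holds the small subunit ready for the mRNA. Its 14 genes had 18 KO peaks in 9 genes and 23 WT peaks in 10 genes, and 11 KO and 10 WT peaks were shared. Their median length was 26.2 kb, and of all protein-coding genes from 10 to 50 kb 31.3% had a KO peak and 37.7% a WT peak. EIF3A, the scaffold subunit, had 7 KO and 6 WT peaks, of which 5 in each list were shared.

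The EIF3A pairs lay close together on the minus strand, at chr10:119037198-119037397 (fold 9.82 on 74 reads in KO, 15.3 on 57 in WT) and chr10:119038337-119038555 (7.84 on 141 in KO, 5.92 on 81 in WT). The next were at chr10:119042181-119042609 (4.04 on 127 in KO, 3.79 on 124 in WT) and chr10:119049860-119050128 (8.97 on 223 in KO, 4.16 on 180 in WT). The last was at chr10:119050551-119050765 (6.32 on 142 in KO, 11.6 on 140 in WT). The order of the folds between the lists thus varied among neighbouring peaks of 1 gene. An unshared KO peak of EIF3A lay at chr10:119036108-119036310 (9.99, 52 reads).

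EIF3J, which helps release and recruit the small subunit, had 3 KO and 2 WT peaks. The shared pairs were at chr15:44551262-44551479 (3.33 on 116 reads in KO, 5.51 on 71 in WT) and chr15:44554396-44554624 (9.85 on 39 in KO, 8.30 on 29 in WT). The unshared KO peak, at chr15:44550705-44550909, had a fold of 10.7 on 40 reads. EIF3L had 1 shared pair, at chr22:37854077-37854279 (3.03 on 80 in KO, 7.64 on 99 in WT). In EIF3G a KO peak at chr19:10114784-10115018 (7.84, 116 reads) met a WT peak that lay outside the gene bounds, and it also overlaps P2RY11. The bounds of EIF3G begin at 10115014, so only the end of this KO peak reaches them and its summit lies outside. It is counted among the KO peaks and the shared KO peaks of EIF3.

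EIF3C and EIF3CL are near-identical copies, and reads cannot be told apart between them with confidence. EIF3C had 1 KO and 4 WT peaks, and so had EIF3CL. The shared pair of EIF3C lay at chr16:28723002-28723402 (3.92 on 292 reads in KO, 7.93 on 325 in WT), and that of EIF3CL at chr16:28392067-28392319 (3.04 on 199 in KO, 3.21 on 206 in WT). Measured from the 3′ bound on the strand of the peaks, the WT summits of these pairs stood at 12570 bp in EIF3C and 12559 bp in EIF3CL. Unshared WT summits stood at 11051 and 21419 bp in EIF3C and at 11044 and 21406 bp in EIF3CL, so 3 of 4 WT summits lay at nearly the same place in both copies. The EIF3C peak without a counterpart, at chr16:28694242-28694472, had a fold of 13.5 on 25 reads.

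EIF4G is the scaffold of the cap complex, EIF4A its helicase, and EIF4B and EIF4H assist the helicase. The 8 genes had 12 KO and 13 WT peaks, all in EIF4B, EIF4G1 and EIF4G3, and these 3 genes had peaks in both lists. EIF4G1 held the shared peak of highest KO fold among factors, at chr3:184334761-184335033 (13.3 on 98 reads in KO, 13.0 on 84 in WT). Its summit lay 20.3 kb into a gene of 20.8 kb in both lists.

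EIF4G3, at 371 kb, was the longest member with shared peaks and had 9 KO and 10 WT peaks. The pairs were at chr1:20879474-20879673 (5.56 on 46 reads in KO, 10.8 on 36 in WT), chr1:20918524-20918908 (8.83 on 30 in KO, 9.08 on 30 in WT) and chr1:21156327-21156628 (6.05 on 136 in KO, 6.14 on 67 in WT). An unshared KO peak lay at chr1:21041186-21041445 (12.1, 57 reads). Unshared WT peaks lay at chr1:20899833-20900032 (11.6, 63 reads), chr1:20874451-20874783 (9.87, 40 reads) and chr1:21083958-21084157 (9.37, 31 reads).

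EIF5B, the GTPase that joins the subunits, had the most shared WT peaks of any factor gene, with 5 of 6 KO and 6 of 6 WT peaks shared. The pairs lay at chr2:99360069-99360342 (12.1 on 99 reads in KO, 6.82 on 77 in WT), chr2:99363483-99363807 (7.12 on 191 in KO, 7.22 on 165 in WT) and chr2:99364086-99364369 (8.56 on 105 in KO, 10.1 on 92 in WT). Another was at chr2:99376202-99376616 (10.7 on 243 in KO, 5.91 on 125 in WT). The KO peak at chr2:99360997-99361673 (8.31, 154 reads) met 2 WT peaks, with folds of 10.1 on 98 reads and 4.96 on 80.

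All shared EIF5B pairs fell within 22.8 to 39.0 kb of the 5′ bound of a gene of 63.9 kb. EIF5, which triggers GTP hydrolysis by EIF2, shared its only peak, at chr14:103338180-103338389 (5.45 on 164 reads in KO, 5.78 on 189 in WT). EIF5A2, a form of the hypusine-bearing factor, had 2 WT peaks alone (folds 8.36 and 8.0 on 15 and 17 reads).

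EIF2 carries the initiator tRNA and EIF2B recharges it with GTP. The 6 genes grouped here by the name EIF2 had 4 KO and 2 WT peaks. EIF2S2, the beta subunit, shared 1, at chr20:34105424-34105717 (5.00 on 89 reads in KO, 7.51 on 77 in WT). Unshared KO peaks lay in EIF2A at chr3:150570081-150570306 (10.5, 54 reads) and in EIF2S1 at chr14:67368771-67369053 (9.96, 76 reads), where the bounds of GPHN overlap.

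The 5 EIF2B genes had 6 KO and 4 WT peaks, and both shared pairs were in EIF2B3, the gamma subunit. These lay at chr1:44870497-44870706 (4.40 on 68 reads in KO, 6.55 on 67 in WT) and chr1:44879113-44879312 (7.70 on 35 in KO, 10.3 on 38 in WT). EIF2B3 also had unshared peaks of high fold, in KO at chr1:44871097-44871445 (12.7, 76 reads) and in WT at chr1:44924307-44924584 (12.4, 32 reads). EIF1 and EIF6 genes, which act at start selection and subunit joining, had no KO peak, and the only WT peak lay in EIF1AD, grouped here by its name, at chr11:65998397-65998824 (11.1, 22 reads).

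The 8 EEF genes had 8 KO and 6 WT peaks. EEFSEC, which delivers selenocysteine tRNA, had 5 KO and 4 WT peaks with none shared, all on its strand and with folds of 4.82 to 9.85 on 15 to 39 reads. The KO peak of highest fold lay at chr3:128287159-128287358 (9.85, 39 reads). The shared pairs of this family were in EEF1D, an exchange factor, at chr8:143589848-143590065 (8.50 on 150 reads in KO, 6.02 on 93 in WT) and in EEF1E1 at chr6:8082924-8083295 (6.95 on 39 in KO, 6.52 on 37 in WT). EEF2, which moves the ribosome by 1 codon, and EEF1B2 and EEF1G had no peak in either list.

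Of the enzymes that modify elongation factors, EEF2KMT, a methyltransferase of EEF2, shared a peak at chr16:5096248-5096449 (7.55 on 46 reads in KO, 9.56 on 25 in WT). EEF1AKMT1, a methyltransferase of EEF1A, shared one at chr13:20767717-20767916 (5.23 on 24 in KO, 7.73 on 28 in WT). EEF1AKMT1 had 2 KO and 4 WT peaks in all.

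At shared places the strength was compared as log2 of scaled IP reads over local input, KO minus WT. The fold was not used because it adds 1 to both terms. Over 31 pairs in factor genes the median was −0.27 (quartiles −0.74 and 0.31), with KO higher in 11 and lower in 20. Over 4828 pairs in all protein-coding genes the median was 0.09 (−0.65 and 0.81), with KO higher in 54% and lower in 46%. The lowest factor value was −1.52, in EIF4G3, and the highest 1.19, in EIF3A. The middle of the factor pairs thus lay on the other side of 0 from that of all pairs, with quartiles that overlapped widely. Pairs of 1 gene share their transcript, and no test was made.

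The 3 ribosomal protein pairs gave 2.40 for RPL31 on the minus strand, −0.62 for RPL31 on its own strand and 0.55 for RPL36A. The first rests on 13 KO reads over a local input of 0.135, so its size depends on the background estimate of the peak caller.

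**Figure D4:**
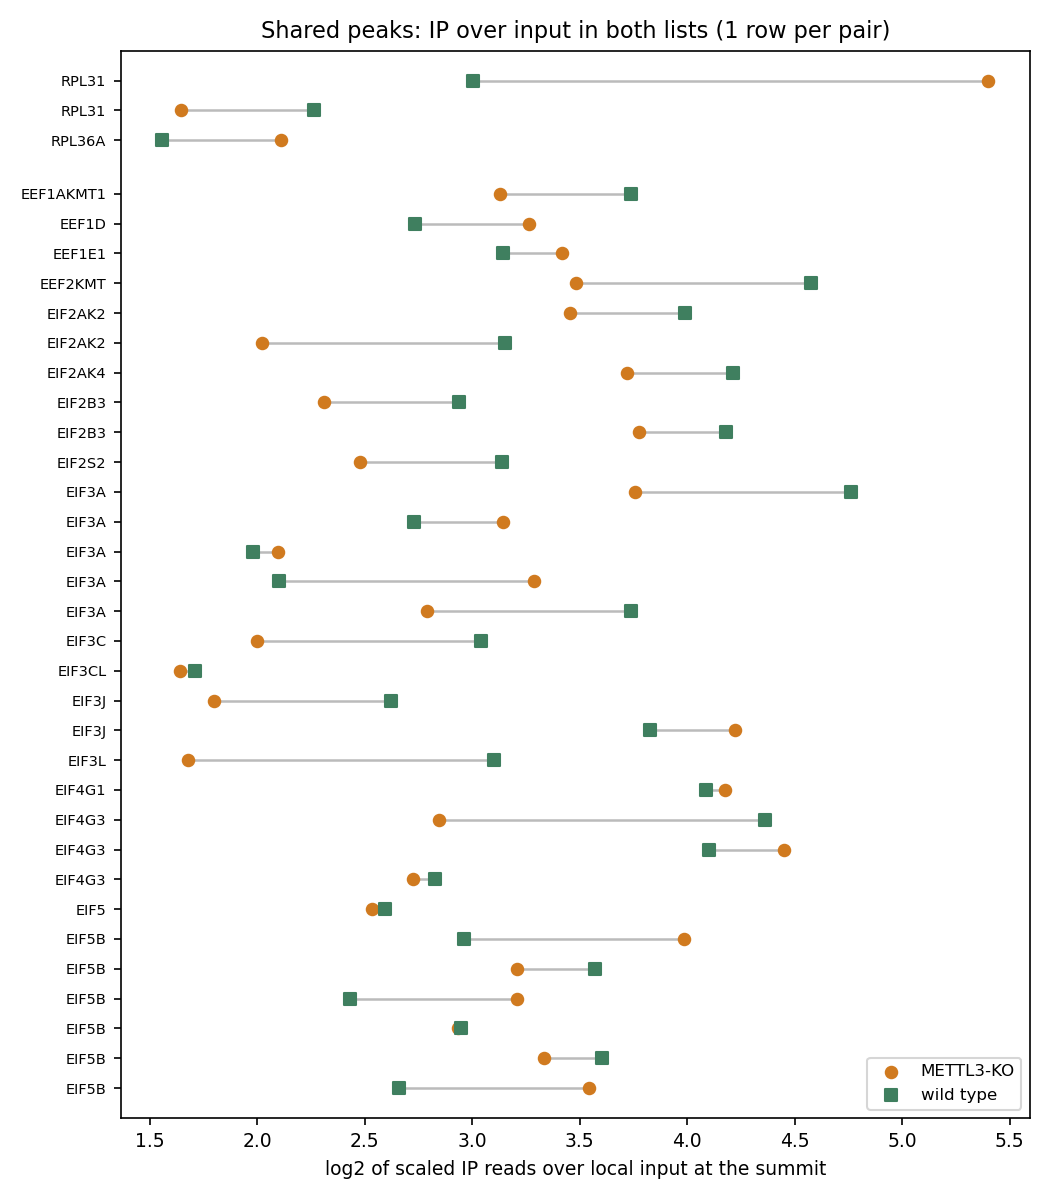
Log2 of scaled IP reads over local input (horizontal axis) for each pair of shared peaks in ribosomal protein and factor genes. KO values are circles and WT values squares, joined by a line. Rows are labelled by gene and follow the position of the peak within a gene. KO lies to the left of WT in 20 of 31 factor pairs, and the widest gap is the 2.40 of the RPL31 pair on the minus strand.

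Position within the gene was taken for peaks on its strand. The median summit stood at 57.6% of the gene from its 5′ bound in KO and 62.3% in WT for ribosomal proteins (6 and 10 peaks) and at 56.0% and 53.8% for factors (56 and 62 peaks), against 51.6% and 50.9% over all protein-coding genes. The 20% of the gene nearest the 3′ bound held 0 of 6 KO and 3 of 10 WT peaks of ribosomal proteins and 12 of 56 KO and 8 of 62 WT peaks of factors, against 21.6% and 21.0% over all. Within 500 bp of the 5′ bound were 0 of 56 KO and 2 of 62 WT factor peaks, those of EIF4EBP2 and EIF5A2. Exons were not used here, so peaks cannot be placed in exons, introns or untranslated regions.

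Neighbouring pathways were counted in the same way. Of all protein-coding genes 34.8% had a KO peak and 39.6% a WT peak, at a median length of 24.1 kb. These shares were 8.67% and 11.5% under 10 kb, 31.3% and 37.7% from 10 to 50 kb, and 63.2% and 67.6% above. Median lengths were 27.4 kb for ribosome assembly, 31.2 kb for factors with other names, 35.0 kb for synthetases and 55.7 kb for the TOR pathway. No list was matched for length. Of 77 mitochondrial ribosomal protein genes, 21 had a KO peak (27.3%), 31 a WT peak (40.3%) and 16 both, with MRPS5, MRPL32, MRPS9 and MRPS28 highest in fold (WT 21.6, WT 20.1, KO 18.9 and WT 17.6). Their median length was 8.62 kb, against 5.01 kb for the cytosolic ones. Of 28 genes of ribosome assembly, 13 had a KO peak (46.4%), 17 a WT peak (60.7%) and 10 both, led by UTP15, NOP58, MDN1 and BMS1.

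Of 19 translation factors with other names, 11 had a KO peak (57.9%), 14 a WT peak (73.7%) and 9 both, led by LARP4, LARP4B, LARP1 and CTIF. LARP1, which binds the TOP tract, had 6 KO and 7 WT peaks. Of 20 cytosolic aminoacyl-tRNA synthetase genes, 12 had a KO peak (60%), 9 a WT peak (45%) and 7 both, led by FARSB, YARS1, NARS1 and CARS1. Of 12 TOR pathway genes, 7 had a KO peak (58.3%), 7 a WT peak (58.3%) and 6 both, led by RICTOR, MTOR, RPTOR and MAPKAP1. Of 4 cytosolic ribosomal protein paralogs outside the name rule, 0 had a KO peak and 2 a WT peak, RPL26L1 (highest fold 10.2) and RPL7L1 (6.45).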

How the data were processed

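Chromosome-associated RNA of HEK293T cells was sequenced after m6A immunoprecipitation and as input. Per the submitters' processing notes, the tools were MACS2 2.2.7.1, HISAT2 2.2.1 and SAMtools 1.15.1 and the build was hg38, with no settings and no word on pooling of replicates. Each deposited list gives a score, which was not used, a fold, a −log10 p-value and a −log10 q-value per peak. The authors' fold is a linear ratio of enriched over input signal at the peak. The deposited −log10 p was combined with the deposited fold to recover whole IP reads and local input, as MACS2 defines fold and Poisson p, and this was checked on simulated peaks. At a tolerance of 0.01 read, 99.99% to 100% of peaks gave whole reads, and 93.3% to 95.7% had a single solution. Total reads per library are not given.

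Peaks were assigned to RefSeq bounds regardless of strand. Gene strand came from the RefSeq promoter table, which lacks 31 members. Shared peaks have 1 bp or more in common on 1 strand. Exact binomial and Poisson 95% intervals cover counting error only. No test was made. The members and lists were chosen with earlier results of these data known. Any member with a peak could be named. Position, fold and reads are given for ribosomal protein peaks, shared factor peaks and the 10 unshared factor peaks of highest fold per list, and up to 4 genes are named per pathway list. The table has no gene under the symbol DAP5, so 19 of the 20 listed factors with other names were counted. Alternatives covered gene bounds, strand, peak thresholds, overlap, gene length and measure of strength. Python 3.11.15, numpy 2.4.6, pandas 2.3.3, SciPy 1.17.1 and matplotlib 3.10.9 were used.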

Additional observations from a re-analysis of the deposited data

How the results depend on the processing

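Of 112 alternatives to the reported shares and differences, 104 moved them by less than their interval or left their direction, 5 moved them further and 3 turned the direction. Restricting peaks to the body of exactly 1 gene left 3 ribosomal protein peaks in KO and 9 in WT. The share without a partner was then 100% in both lists. The share of ribosomal protein genes with a peak in 1 list alone was also 100% (3 of 3 in KO and 8 of 8 in WT). This setting dropped every shared ribosomal protein peak, in RPL31 and RPL36A, and both RPL24 peaks, because each also lies in another gene. The same share of all peaks in protein-coding genes was not taken, so the 100% has no value beside it. Among genes of known strand, with peaks on that strand alone, 4.69% of ribosomal protein genes (3 of 64) had a KO peak. Of those 3, 1 (33.3%) had no WT peak, against 57.1% as reported. The share of genes with a peak, ribosomal proteins minus factors, was −35.0 percentage points in KO and −37.1 in WT, and among genes under 10 kb it was −15.1 in KO and 4.44 in WT. The median fold, ribosomal proteins minus factors, was −3.11 in KO and −1.84 in WT, and with IP reads in place of fold the difference was 11 reads in KO and 1 in WT. Leaving out the near-identical EIF3C and EIF3CL, and taking folds on the strand of the gene alone, were added after seeing the data and changed no direction. No paired analysis was possible because the lists carry no values per replicate, and for the same reason no replicate could be left out. The ribosomal protein peak shares rest on 11 KO and 13 WT peaks.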
